A study of Mus musculus with 72 samples.

Results

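The mouse liver genes described here are 9 genes of de novo lipogenesis: Acly, Acaca, Acacb, Fasn, Me1, Scd1, Elovl6, Thrsp and Pnpla3. They were taken from the deposited gene table by symbol, and all 9 of the 9 symbols were found among its 27846 genes and passed the filter on low counts. The 72 livers came from C57bl6 mice with a wild type genotype, 8 to 16 weeks old, of both sexes. Mice under chronic circadian misalignment were set against controls. Both were kept under 12 h of light and 12 h of dark and, once the paradigm began, changed from chow to a diet with 42% of calories from fat, so the controls carried the diet too. The labels do not describe the misalignment schedule, nor say how lights and stated clock time were aligned in the misaligned mice. Misaligned females, control females, misaligned males and control males were each sampled at 0, 4, 8, 12, 16 and 20 h with 3 mice per time, which gives 24 groups of 3 and 18 livers for each sex and treatment.

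De novo lipogenesis turns surplus carbohydrate into fatty acids, and in the liver it is induced by feeding and insulin through the transcription factors SREBP-1c (gene Srebf1) and ChREBP (gene Mlxipl). ATP citrate lyase (Acly) makes cytosolic acetyl-CoA from citrate. The carboxylases ACC1 (Acaca) and ACC2 (Acacb) make malonyl-CoA, ACC1 for synthesis in the cytosol and ACC2 at the mitochondrion, where malonyl-CoA restrains fatty acid entry. Malic enzyme (Me1) supplies NADPH, fatty acid synthase (Fasn) builds palmitate, ELOVL6 (Elovl6) lengthens it and stearoyl-CoA desaturase (Scd1) makes it monounsaturated. Spot 14 (Thrsp) is a thyroid hormone responsive protein that promotes lipogenesis and is not itself known as an enzyme of the chain. PNPLA3 (Pnpla3) is a lipid droplet protein whose gene is switched on by feeding together with the others.

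On GRCm38 with GENCODE vM21, Acly (ENSMUSG00000020917) spans 100476353 to 100528000 on chromosome 11, Acaca (ENSMUSG00000020532) 84129672 to 84401651 and Fasn (ENSMUSG00000025153) 120805846 to 120824547 on the same chromosome. Acacb (ENSMUSG00000042010) spans 114146535 to 114250761 on chromosome 5, Me1 (ENSMUSG00000032418) 86581371 to 86695953 on chromosome 9 and Scd1 (ENSMUSG00000037071) 44394455 to 44407879 on chromosome 19. Elovl6 (ENSMUSG00000041220) spans 129532355 to 129638495 on chromosome 3, Thrsp (ENSMUSG00000035686) 97412938 to 97417730 on chromosome 7 and Pnpla3 (ENSMUSG00000041653) 84167837 to 84187236 on chromosome 15. Each is a protein-coding gene. Reads that could belong to more than 1 feature were few for most of them: counts that include such reads were 1.20 times as high for Acaca, 1.11 times for Me1 and at most 1.01 times for the other 7.

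Each library carried 11551524 to 12529963 gene counts (median 12005221). Values are given as CPM, counts scaled to a common library size with TMM factors, and their spread as the SD over livers. Per kilobase of exon, Scd1 stood highest with a median of 6917 CPM per kb over the 72 livers, followed by Thrsp (420), Fasn (173), Acly (104), Me1 (103), Elovl6 (49.8), Acacb (25.4), Acaca (13.0) and Pnpla3 (7.70). Scd1 stood above Thrsp in all 72 livers, and the ranges of every other pair of neighbours in this order overlapped. The order was kept in 64 to 70 of the 72 livers for 5 of these pairs, but in 41 for Acly above Me1 and in 46 for Acaca above Pnpla3, which did not differ beyond their spread. Scd1 alone took a median of 3.36% of all gene counts of a library, with a range of 0.863 to 5.81%. Pnpla3 was thinly covered, with 7 to 1052 counts per library and a median of 143, whereas each of the other 8 genes had at least 543 counts in every library. Hepatocyte markers such as Alb were high in every library. Of 6 adipocyte markers, the defining genes Adipoq, Lep and Plin1 had at most 2 counts in any library and Retn at most 11, while Cfd reached 1581 and Car3, which liver also expresses, had at least 9981.

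**Figure D1:**
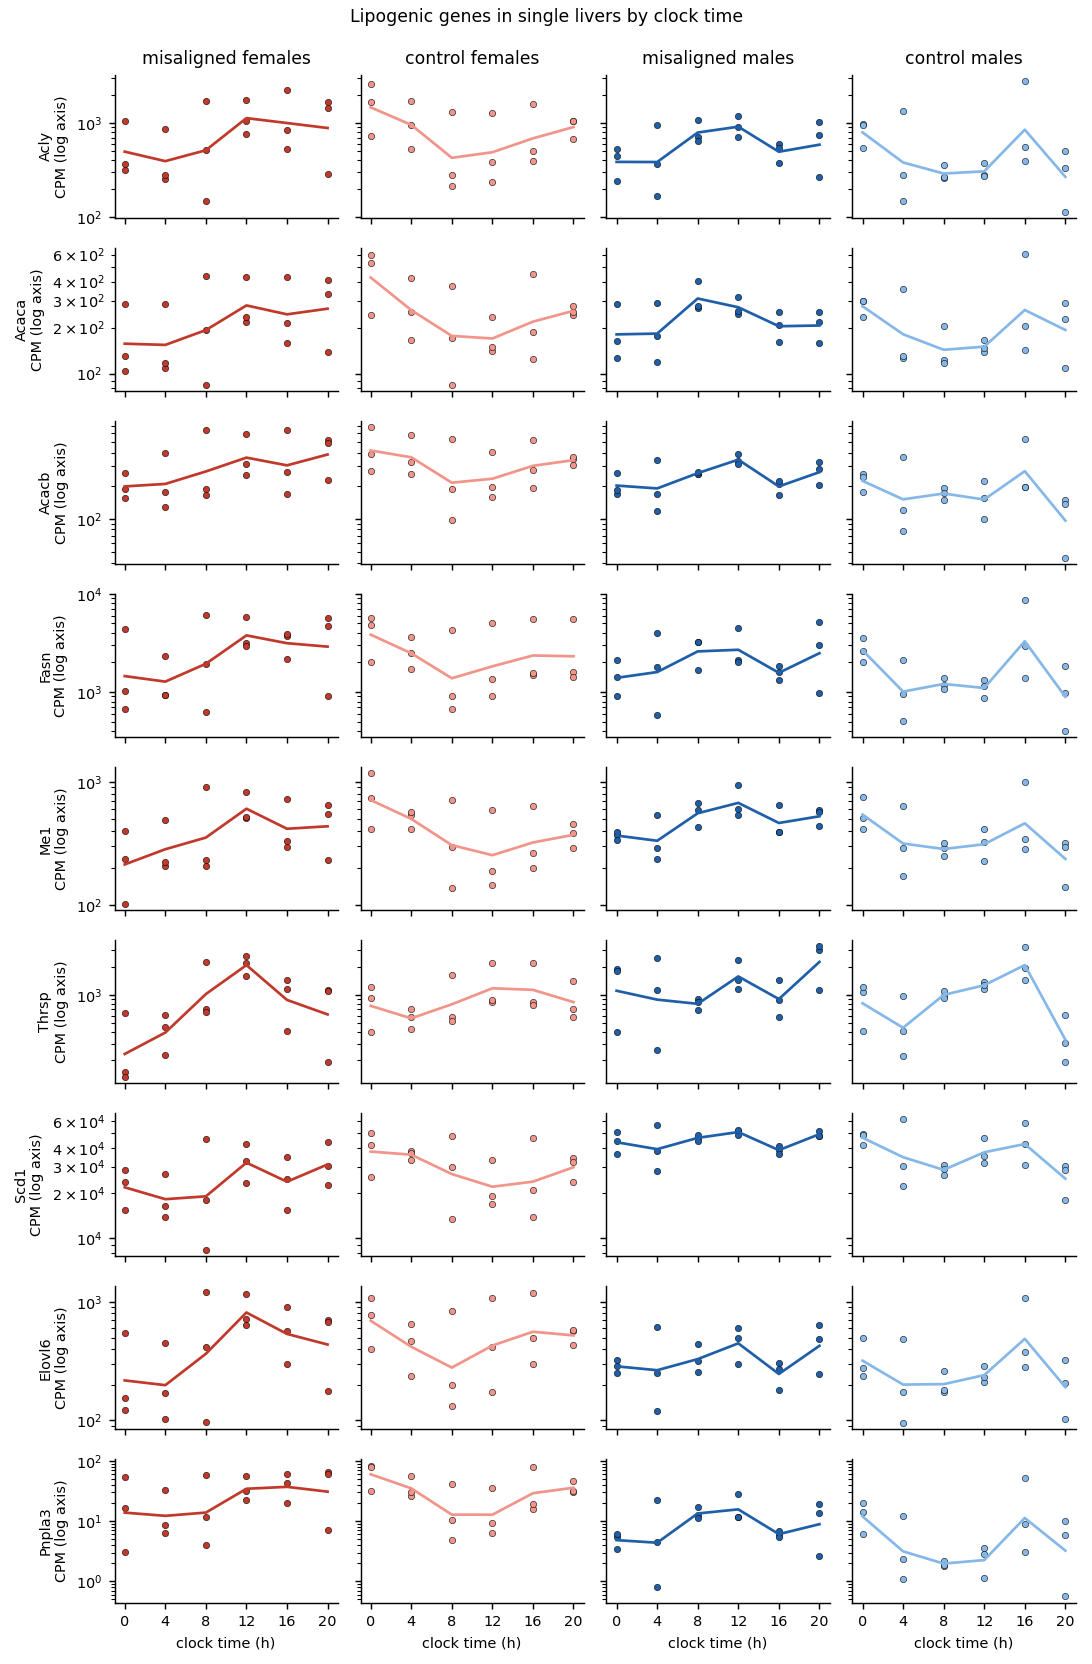
CPM of the 9 genes on log axes (rows) against clock time in h in misaligned females, control females, misaligned males and control males (columns). Each point is 1 liver, and lines join the means of the 3 log2 values per clock time. Livers of 1 clock time lie far apart in most panels, for example 149 to 1739 CPM of Acly in misaligned females at 8 h.

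The levels of the first enzymes of the chain overlapped widely between misaligned and control livers. Acly ranged from 149 to 2255 CPM (median 802) in misaligned females, against 212 to 2595 CPM (median 847) in control females. In males it ranged from 165 to 1193 CPM (median 620) in misaligned and from 114 to 2805 CPM (median 363) in control livers. The 4 ranges overlapped almost fully. Acaca had medians of 216 CPM in misaligned and 243 CPM in control females, while among males the medians were 249 CPM in misaligned and 185 CPM in control livers. Acacb had medians of 257 CPM in misaligned and 320 CPM in control females, and of 256 CPM in misaligned and 175 CPM in control males. Control males thus had the lowest median of all 4 sets for each of Acly, Acaca and Acacb.

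Fatty acid synthase and malic enzyme spread as widely. Fasn ranged from 624 to 6031 CPM (median 2640) in misaligned females and from 673 to 5732 CPM (median 1863) in control females. In males it ranged from 577 to 5212 CPM (median 1939) in misaligned and from 403 to 8601 CPM (median 1363) in control livers. The single highest Fasn value of the study belonged to a control male at 16 h. Me1 had medians of 367 CPM in misaligned and 414 CPM in control females, and of 484 CPM in misaligned and 318 CPM in control males.

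The genes that modify palmitate differed in how they ordered the sexes. Elovl6 ranged from 96.9 to 1203 CPM (median 500) in misaligned females and from 132 to 1185 CPM (median 481) in control females. In males it ranged from 121 to 636 CPM (median 301) in misaligned and from 95.2 to 1090 CPM (median 251) in control livers. Its 2 female medians lay above both male medians. Scd1 ran the other way in misaligned mice: it ranged from 8356 to 45850 CPM (median 24198) in misaligned females and from 28138 to 56465 CPM (median 47312) in misaligned males. In controls it ranged from 13407 to 50481 CPM (median 32616) in females and from 18044 to 61855 CPM (median 31083) in males. Misaligned males held the highest and misaligned females the lowest of the 4 Scd1 medians.

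Averaged over the 6 clock times, misalignment did not move any of the 9 genes past the threshold in either sex (0 of 9 in each; edgeR quasi-likelihood test, Benjamini-Hochberg adjusted p over 15066 genes at 0.05). The background was as sparse, with 0.00664% of all genes called in females (1 gene) and 0% in males, and 1006 and 932 genes at an unadjusted p below 0.05. DESeq2 and limma-voom also called 0 of the 9. The fitted log2 differences were below 0 for all 9 genes in females, with a median of -0.13 against -0.0010 for all tested genes, and above 0 for all 9 in males, with a median of 0.39 against 0.0064. In females blood cell markers had a median difference of -1.02, and 1 of the 7 was called, lower in misaligned females. Their part in the differences was not tested. Because the 9 genes varied together between livers, as described further on, their shared sign is not 9 separate observations. In whole liver, fewer cells of a type and less RNA per cell cannot be told apart.

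Thrsp and Scd1 had the smallest unadjusted p-values for these mean effects. Thrsp averaged 1420 ± 877 CPM in misaligned males and 1043 ± 716 CPM in control males (SD, n = 18 each), a log2 difference of 0.58 ± 0.28 (SE; edgeR adjusted p = 0.796). In females it averaged 976 ± 760 CPM in misaligned and 966 ± 547 CPM in control livers. Scd1 averaged 25933 ± 10831 CPM in misaligned females and 30983 ± 11535 CPM in control females, a log2 difference of -0.26 ± 0.17 (edgeR adjusted p = 0.817). It averaged 45072 ± 7333 CPM in misaligned males and 36799 ± 12268 CPM in control males, a difference of 0.32 ± 0.17 (edgeR adjusted p = 0.807). The effect in females minus that in males was below 0 for all 9 genes, with a median of -0.51, and was tested directly. None of the 9 passed (0% of all genes did, with 859 at an unadjusted p below 0.05), including Scd1 at -0.58 ± 0.23 (edgeR adjusted p = 0.821), Thrsp at -0.79 ± 0.39 (adjusted p = 0.872) and Pnpla3 at -0.84 ± 0.58 (adjusted p = 0.947). DESeq2 and limma-voom called 0 of the 9 as well.

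Clock time by clock time, the fitted differences between misaligned and control livers had 1 sign for all 9 genes in 6 of the 12 contrasts. In females all 9 fitted differences were below 0 at 0 h, with a median of -1.43, and at 4 h, with a median of -0.89, and all 9 were above 0 at 12 h, with a median of 0.71. In males all 9 were below 0 at 16 h, with a median of -1.19, and above 0 at 12 h and at 20 h, with medians of 1.11 and 1.10. At 16 h all 9 genes were highest in the same control male, replicate 2, with 2805 CPM of Acly against 551 and 398 CPM in its group mates. The contrasts at single clock times were not refitted without single livers. In the other 6 contrasts the signs were mixed: 8 of 9 were above 0 at 8 h in both sexes, 6 and 7 of 9 in females at 16 h and 20 h, and 1 and 6 of 9 in males at 0 h and 4 h. The medians of all tested genes lay between -0.02 and 0.02 in the 12 contrasts. Of the 108 tests of a gene at a clock time, 1 passed, with p-values adjusted over all genes within each contrast and not across the 12. In females 0.0664% of all genes were called at 16 h (0.0597% lower) and at most 0.00664% at each other time. In males 0.378% were called at 0 h (0.206% lower), 0.00664% at 4 h, 0.392% at 8 h, 0% at 12 h and 1.08% at 16 h.

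That one was Thrsp in males at 20 h, where 14.4% of all genes were called. Its values were 1130, 3027 and 3279 CPM in misaligned males and 610, 310 and 195 CPM in control males. Every misaligned liver stood above every control liver. The log2 difference was 2.74 ± 0.72 (edgeR adjusted p = 0.0103). In the same contrast 2 of 4 stellate cell markers (median -0.85), 1 of 5 endothelial markers (median -0.43) and 1 of 4 cholangiocyte markers (median -0.96) were called lower in misaligned males and 1 of 6 hepatocyte markers higher (median 0.36). Their part in this result was not tested. Without replicate 2 or replicate 3 the Thrsp difference was 2.45 and 2.18 and did not pass (adjusted p = 0.186 and 0.106). At the same time Scd1 had 51984, 47820 and 48196 CPM in misaligned males against 30183, 28391 and 18044 CPM in control males, which do not overlap either, with a log2 difference of 0.95 ± 0.41 (adjusted p = 0.106). Scd1 passed when the 36 male libraries were fitted alone, at 0.96 (adjusted p = 0.0356). Acacb had 202, 286 and 326 CPM in misaligned and 148, 136 and 44.3 CPM in control males (1.31 ± 0.57, adjusted p = 0.111).

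In females the largest shifts at a clock time were downward at 0 h, where 0.00664% of all genes were called. Me1 had 401, 238 and 102 CPM in misaligned females and 1174, 738 and 417 CPM in control females. The groups do not overlap, yet the log2 difference of -1.65 ± 0.58 did not pass (edgeR adjusted p = 0.863). Acly had 1047, 319 and 364 CPM in misaligned and 2595, 1675 and 732 CPM in control females, so that the highest misaligned liver stood above the lowest control liver. At 4 h Scd1 had 13737, 26933 and 16285 CPM in misaligned and 33273, 38111 and 36805 CPM in control females (-0.93 ± 0.41, adjusted p = 0.663).

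**Figure D2:**
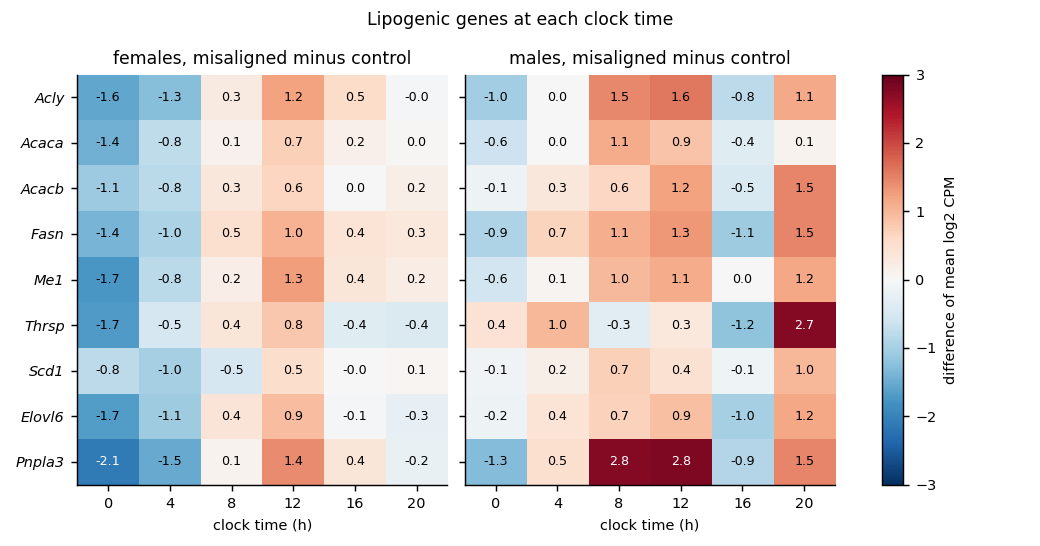
Difference of mean log2 CPM, misaligned minus control, for the 9 genes (rows) at each clock time in h (columns), in females (left) and males (right); n = 3 livers per group, and red cells are higher in misaligned livers. Female columns at 0 h and 4 h are blue in all rows, the male column at 16 h is blue in all rows but Me1, which is near 0 there, and Thrsp in males at 20 h is the deepest red of that column.

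Whether the effect of misalignment was equal at all 6 clock times was tested with 5 degrees of freedom. In females none of the 9 genes passed (0.0332% of all genes did), and 1 of the 9 had an unadjusted p below 0.05. In males none of the 9 passed either, where 9.26% of all genes did, and 4 of the 9 had an unadjusted p below 0.05. The nearest were Thrsp (edgeR adjusted p = 0.0566) and Pnpla3 (adjusted p = 0.0830). DESeq2 called both, at adjusted p = 0.0131 for Thrsp and 0.0198 for Pnpla3, and limma-voom called neither.

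Sex was the factor that separated some of the genes. In misaligned mice 3 of the 9 were called, of which Pnpla3 was higher and Scd1 and Thrsp were lower in females, beside 37.7% of all genes (17.8% higher and 19.9% lower in females). In controls 3 of the 9 were called as well, all higher in females: Pnpla3, Acacb and Elovl6. Sex differences were common in control livers too, with 32.9% of all genes called and 16% called higher in females, so 3 of 9 is close to the background share in either treatment. The median log2 difference over the 9 genes, females minus males, was 0.29 in misaligned mice and 0.73 in controls, against 0.01 for all genes in both.

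Pnpla3 had the largest sex difference of the 9 genes. It ranged from 3.06 to 66.1 CPM (median 27.0) in misaligned females and from 0.814 to 28.2 CPM (median 8.98) in misaligned males. In controls it ranged from 4.78 to 83.6 CPM (median 31.4) in females and from 0.571 to 52.6 CPM (median 3.36) in males. Female medians were higher in both treatments and the ranges overlapped. The log2 difference was 1.61 ± 0.40 in misaligned mice (3.05-fold, edgeR adjusted p = 0.00116) and 2.45 ± 0.43 in controls (5.45-fold, adjusted p = 9.69e-06), in the same direction at 6 of 6 clock times each. The call in misaligned mice did not pass without replicate 2, at 1.28 (adjusted p = 0.0677).

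Acacb and Elovl6, the mitochondrial carboxylase and the elongase, passed in controls and not in misaligned mice. In misaligned mice Acacb averaged 320 ± 178 CPM in females and 248 ± 74.5 CPM in males, a log2 difference of 0.35 ± 0.23 (edgeR adjusted p = 0.236). In controls it averaged 339 ± 158 CPM in females and 193 ± 111 CPM in males (0.86 ± 0.23, adjusted p = 0.00278). Elovl6 averaged 507 ± 352 CPM in misaligned females and 355 ± 153 CPM in misaligned males (0.42 ± 0.29, adjusted p = 0.274), against 556 ± 323 CPM in control females and 306 ± 225 CPM in control males (0.93 ± 0.30, adjusted p = 0.0117). That either sex difference was smaller after misalignment is not shown, as the test of the difference gave adjusted p = 0.928 for Acacb and 0.961 for Elovl6. Both calls in controls were kept without replicate 2, at 1.31 and 1.39 (edgeR adjusted p = 7.41e-04 and 0.0053). They did not pass without replicate 1, at 0.71 and 0.82 (adjusted p = 0.0680 and 0.0691). Nor did they without replicate 3, at 0.55 and 0.53 (adjusted p = 0.118 and 0.328).

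Acly and Fasn lay just beyond the threshold in controls. Acly averaged 956 ± 648 CPM in control females and 597 ± 637 CPM in control males (0.82 ± 0.33, edgeR adjusted p = 0.0515). It passed with the size factors of DESeq2 (adjusted p = 0.0493), with a filter at a mean of 5 CPM (0.0383), with DESeq2 (0.0337) and without replicate 2 (1.44, adjusted p = 0.00731). Without replicate 1 it was 0.66 (adjusted p = 0.223) and without replicate 3 it was 0.37 (adjusted p = 0.555). Fasn averaged 2819 ± 1852 CPM in control females and 1942 ± 1864 CPM in control males (0.73 ± 0.32, adjusted p = 0.0763) and passed without replicate 2, at 1.23 (adjusted p = 0.0266), but was 0.67 without replicate 1 and 0.14 without replicate 3 (adjusted p = 0.191 and 0.828).

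Scd1 was lower in females among misaligned mice. The log2 difference, females minus males, was -0.82 ± 0.17 (0.567-fold, edgeR adjusted p = 7.65e-05), with females lower at 6 of 6 clock times. In controls it was -0.24 ± 0.17 (adjusted p = 0.283). The call in misaligned mice was kept with each of the 72 libraries left out in turn (-0.96 to -0.75) and without each replicate number (-0.97 to -0.62). Thrsp was also lower in misaligned females than in misaligned males, by -0.72 ± 0.28 (adjusted p = 0.0340), at 3 of 6 clock times, and this call did not pass when any 1 replicate number was left out (-0.87 to -0.52, adjusted p = 0.0699 to 0.192), with no filter on low counts (-0.71, adjusted p = 0.0706) and without any one of 14 single livers (adjusted p up to 0.0945). In controls Thrsp differed by 0.07 ± 0.27 (adjusted p = 0.881).

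Cell type markers were also compared between the sexes. Summed Kupffer cell markers (5 of 5 measured) ranged from 312 to 885 CPM in misaligned females and 264 to 611 CPM in misaligned males, and from 318 to 1357 CPM in control females and 195 to 584 CPM in control males. Summed hepatocyte markers (6 of 6) ranged from 92202 to 134512 CPM in misaligned females and 69042 to 107740 CPM in misaligned males, and from 89698 to 129799 CPM in control females and 68718 to 116086 CPM in control males. Summed blood cell markers (7 of 7) ranged from 56.5 to 628 CPM in misaligned females and 133 to 544 CPM in misaligned males, and from 99.98 to 949 CPM in control females and 150 to 616 CPM in control males. Of all genes 37.7% were called between the sexes in misaligned mice and 32.9% in controls. Between the sexes 1 of the 7 blood cell markers was called in misaligned mice, lower in females, and all 7 in controls, 6 higher and 1 lower. Endothelial markers were called for 3 of 5 in misaligned mice and 2 of 5 in controls, all higher in females, stellate cell markers for 1 of 4 and 2 of 4, all lower, and cholangiocyte markers for 1 of 4 in each. These counts, of few markers each, were not tested against the shares of all genes. The part of these cells in the sex differences was not tested. Summed adipocyte markers (6 of 6) had medians of 2442 CPM in misaligned females and 2435 CPM in misaligned males, and of 2556 CPM in control females and 2515 CPM in control males, nearly all of it Car3. Of the 2 adipocyte markers with enough counts to test, 1 was called lower in females in each treatment, with medians of the 2 log2 differences of -2.44 in misaligned mice and -2.22 in controls.

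**Figure D3:**
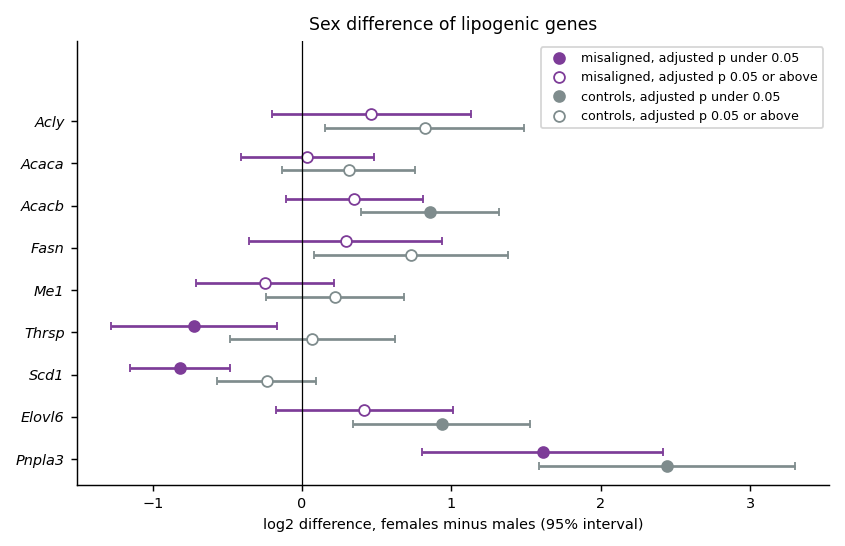
Log2 difference, females minus males, of the 9 genes (rows), averaged over 6 clock times, with 95% intervals, in misaligned mice (purple) and controls (grey); filled points have an adjusted p below 0.05. Pnpla3 lies right of 0 in both treatments, Acacb and Elovl6 are filled in controls, and Scd1 and Thrsp are filled left of 0 in misaligned mice.

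Intron reads, counted apart from the gene counts, gave a second readout, mostly of unspliced RNA. All 9 genes passed the filter in the intron table, from a median of 43.5 intron counts per library for Elovl6 to 1198 for Fasn. Deviations of a liver from its group mean ran together between gene and intron counts. Pearson r over 72 livers was 0.98 for Fasn, 0.97 for Pnpla3, 0.96 for Me1 and Acly, 0.90 for Acaca and 0.89 for Acacb. It was lower for Thrsp (0.84), Scd1 (0.71) and Elovl6 (0.59). These r values are descriptions, since both counts come from the same libraries.

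The sex differences in introns followed those in gene counts for most called genes. In misaligned mice Pnpla3 was higher in females by 1.47 ± 0.42 log2 (edgeR adjusted p = 0.0101), Thrsp lower at -0.86 ± 0.25 (adjusted p = 0.0101) and Scd1 lower at -0.86 ± 0.31 (adjusted p = 0.0491), beside 17.3% of all 11293 intron genes called. In controls Pnpla3 was higher in females by 2.28 ± 0.44 (adjusted p = 1.12e-04) and Acacb by 0.89 ± 0.23 (adjusted p = 0.00387), beside 14.7% of all. Elovl6 did not pass at 0.92 ± 0.39 (adjusted p = 0.113). Mean effects of misalignment passed for 0 of the 9 in introns of either sex, as for 0% of all intron genes. DESeq2 and limma-voom were not run on introns.

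Rhythms over the day were fitted as a 24 h cosine with 1 amplitude (mean to peak, in log2) and 1 peak time per sex and treatment. In misaligned females 1 of the 9 genes was called rhythmic, against 7.69% of all genes, and in misaligned males 0 of 9, against 0.00664%. In control females 0 of the 9 were called, against 12% of all genes, and in control males 0 of 9, against 10.8%. Unadjusted p-values were below 0.05 for 2 of the 9 in misaligned females, 0 in misaligned males and 2 in each control set. The median fitted amplitudes were 0.65 and 0.51 in misaligned and control females and 0.32 and 0.46 in misaligned and control males, against 0.16, 0.17, 0.13 and 0.17 for all genes. The standard errors of the 9 genes were large, at 0.16 to 0.45 per gene. A fitted amplitude cannot fall below 0 and grows with the spread between livers, which was wide for these genes. The higher medians alone therefore do not show a rhythm.

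Thrsp was the gene called, in misaligned females. It had 641, 150 and 134 CPM at 0 h, 226, 608 and 452 CPM at 4 h and 715, 662 and 2233 CPM at 8 h. At 12 h it had 1578, 2181 and 2577 CPM, at 16 h 1148, 1451 and 411 CPM, and at 20 h 193, 1111 and 1103 CPM. Each of the 3 livers at 12 h was above all livers at 0 h and 4 h. The amplitude was 1.25 ± 0.29 with a peak at 12.7 ± 0.87 h (edgeR adjusted p = 0.0105). The test of any difference between the 6 clock times did not pass (adjusted p = 0.0637), and the cosine did not pass without any one replicate number (adjusted p = 0.0805 to 0.128), though it did without any 1 library (0.00489 to 0.0397).

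Thrsp also peaked in the middle of the clock day in controls, at 14.6 ± 2.14 h in females (amplitude 0.51 ± 0.29, edgeR adjusted p = 0.456) and at 13.9 ± 1.48 h in males (0.74 ± 0.29, adjusted p = 0.150). Neither passed. In control males the values were 1927, 3194 and 1448 CPM at 16 h and 610, 310 and 195 CPM at 20 h, so every liver of 16 h stood above every liver of 20 h. All of the other 8 genes had later fitted peaks in controls, none of them called. In females these ran from 19.7 ± 3.35 h for Elovl6 through 23.5 ± 1.95 h for Acly to 1.39 ± 1.81 h for Scd1. In males they ran from 16.7 ± 7.02 h for Acacb to 21.7 ± 8.72 h for Scd1. The amplitudes of these 2 genes in males were only 0.12 and 0.07, so their peak times are hardly defined. Whether the other genes peaked later than Thrsp was not tested. In misaligned females the fitted peaks of all 9 genes lay between 12.7 and 16.5 h.

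A change of rhythm with misalignment was called for 0 of the 9 genes in females, against 0.192% of all genes, and for 0 of 9 in males, against 9.23%. Unadjusted p-values were below 0.05 for 4 of the 9 in females (Acly, Acaca, Me1 and Scd1) and for 1 in males (Pnpla3), and DESeq2 and limma-voom called 0 of the 9 in either sex. Me1 came closest in females: its fitted peak lay at 13.4 ± 1.56 h in misaligned and at 0.87 ± 1.57 h in control females, with amplitudes of 0.56 and 0.55 (edgeR adjusted p = 0.261). The amplitude of Pnpla3 was 0.54 ± 0.41 in misaligned males, against 1.38 ± 0.45 in those of the control arm (adjusted p = 0.137). The sex difference of the rhythm change passed for 0 of the 9, against 1.73% of all genes, and was nearest for Thrsp (adjusted p = 0.207). The rhythms of control females and control males differed for 0 of the 9, as for 0% of all genes.

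Stated clock time and the time read from the liver's own clock genes differed in most misaligned males. From the expression of 14 core clock genes, each liver was given a molecular time, the hour of the control curve of its sex that it resembled. It lay more than 4 h from the stated time in 2 of 18 misaligned females and 15 of 18 misaligned males. None of the 18 control females or 18 control males lay that far off, but the 14 genes were chosen as rhythmic in controls and a control liver was read against the other controls of its sex, so controls lie near their stated time largely by construction. Rhythms were refitted on that axis, a choice made after seeing the data. Over all genes 10.7% were then called in misaligned females, 13.7% in control females, 11.5% in misaligned males and 12.4% in control males.

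On molecular time Thrsp passed in both misaligned sets. Its amplitude was 1.35 ± 0.26 with a peak at 15.1 ± 0.72 h in misaligned females (edgeR adjusted p = 3.46e-04) and 1.02 ± 0.27 with a peak at 13.4 ± 1.18 h in misaligned males (adjusted p = 0.0100). In controls it was 0.57 ± 0.25 with a peak at 15.2 h in females (adjusted p = 0.287) and 0.66 ± 0.27 with a peak at 14.6 h in males (adjusted p = 0.196). The 4 fitted Thrsp peaks lay within 13.4 to 15.2 h on this axis, against 12.7 to 19.8 h on clock time. The peak at 19.8 ± 2.40 h was that of misaligned males, whose fit on clock time was not called (amplitude 0.45 ± 0.29, edgeR adjusted p = 0.836). Molecular time was read from the same libraries as Thrsp, so these fits are not independent of it. Whether the peaks lie closer together on molecular time was not tested. Elovl6 passed in misaligned females (1.06 ± 0.28, peak at 16.4 h, adjusted p = 0.0204) and Pnpla3 in control males (1.47 ± 0.42, peak at 20.6 h, adjusted p = 0.0401). No change of rhythm with misalignment was called for any of the 9 on molecular time, in either sex. The background was as sparse, with 0.00664% of all genes called in females and 0% in males, so this does not set the 9 genes apart.

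**Figure D4:**
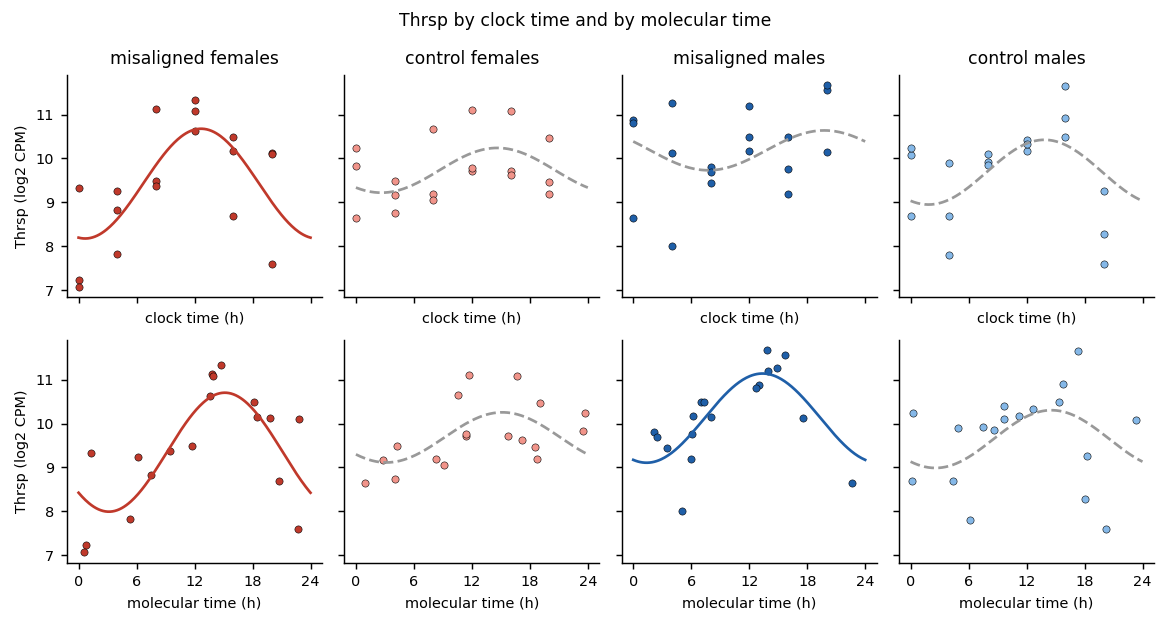
Thrsp in log2 CPM against the stated clock time (top) and the molecular time read from clock genes (bottom), in h, for misaligned females, control females, misaligned males and control males; each point is 1 liver, and curves are the fitted 24 h cosines, solid where the adjusted p is below 0.05 and dashed grey otherwise. Curves are solid for misaligned females on both axes and for misaligned males on molecular time, where livers near 13 h are high.

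For most of the genes and groups the spread between livers of 1 group was wide. The SD of log2 CPM within groups was 1.31 for Pnpla3, 1.02 for Acly, 1.00 for Fasn, 0.91 for Elovl6, 0.87 for Thrsp, 0.70 for Me1, 0.69 for Acacb, 0.68 for Acaca and 0.52 for Scd1. These stand between the 94.0th and 99.7th percentile of the 9674 genes with a mean of at least 5 CPM, whose median SD was 0.22. All but Pnpla3 had medians of 2618 counts or more per library. The 3 mice of 1 group could differ 11.7-fold in Acly, 9.67-fold in Fasn, 12.4-fold in Elovl6 and 27.9-fold in Pnpla3. For 6 of the 9 genes (all but Fasn, Thrsp and Pnpla3) misaligned males had the lowest SD of the 4 sets. The within-group SD of Scd1 was 0.68 in misaligned and 0.61 in control females, and 0.24 in misaligned and 0.42 in control males, and that of Me1 was 0.84, 0.82, 0.39 and 0.67 in the same order. The difference in spread was not tested.

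The genes varied together from liver to liver. Deviations of log2 CPM from the group mean correlated for all 36 pairs of genes over the 72 livers, with Pearson r from 0.67 to 0.95 (median 0.84) and Spearman rho from 0.65 to 0.94. Every pair passed the permutation test within groups (100000 permutations, p at most 3e-05, adjusted over the 36 pairs at most 3e-05, where 1e-05 is the smallest p they can give). Without the 2 livers farthest from the median of the first gene of a pair r was 0.64 to 0.95. For scale, pairs of all 9674 genes had a median r of 0.003, with 5th and 95th percentiles of -0.44 and 0.48, and 0.779% of such pairs reached the lowest r among the 9 genes. Acly and Elovl6 were closest (r = 0.95), followed by Acly and Acaca (0.94) and Fasn and Pnpla3 (0.94), and Fasn and Scd1 were least close (0.67).

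The shared variation showed in which liver of a group was highest. In 12 of the 24 groups all 9 genes were highest in the same 1 of 3 livers, and in 17 at least 7 of 9 were. In 8 groups all 9 were lowest in the same liver. In control males at 16 h, replicate 2 had 2805 CPM of Acly, 8601 CPM of Fasn and 52.6 CPM of Pnpla3, against 551 and 398, 2970 and 1394, and 8.79 and 3.09 CPM in its 2 group mates. In misaligned females at 8 h, replicate 3 had 1739 CPM of Acly, 6031 CPM of Fasn and 57.1 CPM of Pnpla3, against 521 and 149, 1936 and 624, and 11.6 and 4.00 CPM.

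Within each sex and treatment (18 livers) the median r of the 36 pairs was 0.88 in misaligned females, 0.90 in control females, 0.68 in misaligned males and 0.88 in control males. Misaligned males had the lowest pair, Acaca and Thrsp at 0.16, where the other sets had 0.84, 0.84 and 0.77 for that pair. Whether these r values differ between the sets was not tested. Thrsp (mean r of 0.76 with the other 8) and Scd1 (0.74) were the least tied to the others over all livers, and Acly (0.88) the most. Intron counts gave r from 0.34 to 0.92 (median 0.67) for the same pairs.

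**Figure D5:**
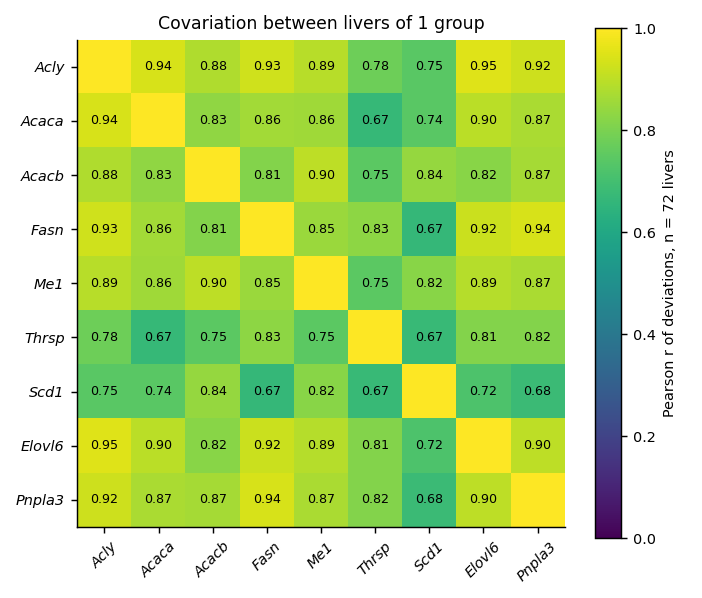
Pearson r, over 72 livers, between deviations of log2 CPM from the group mean for each pair of the 9 genes, on a colour scale from 0 to 1. All off-diagonal cells lie between 0.67 and 0.95, and the rows of Thrsp and Scd1 are the darkest.

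Since the genes moved together, the stretch before their start sites is shown for Fasn and Thrsp, which held more than 1 CCAAT box, and for Pnpla3, which had the largest sex difference. Promoters came from RefSeq on GRCm38.p6, and windows of 250 bases before to 50 after the start were held for 8 of the 9 genes (all but Scd1). The 4 letter patterns searched, on both strands, were CCAAT, the box bound by NF-Y; CACGTG, an E-box; TCACNCCAC, a sterol element; and GGGCGG, a GC box. The 8 genes have 9 such windows, as Me1 has 2 starts. The windows of Acaca (chr11:84195188-84195487) and Acacb (chr5:114165268-114165567) lie well inside the gene spans given above. No window at the outermost start was thus held for these genes. The Me1 window with CCAAT (chr9:86687228-86687527) also lies inside its gene. CCAAT was found in 6 of the 9 windows, those of Acly, Acacb, Fasn, Thrsp and Pnpla3 and 1 of Me1, against 37.4% of 32851 promoters. GGGCGG was found in 3 of 9 (35.7% of all), and CACGTG (7.15%) and TCACNCCAC (1.24%) in 0 of 9, which says only that these letters are not in these windows. The 150 bases before the start follow, written 5′ to 3′, with every match to CCAAT or GGGCGG on either strand in capitals.
Fasn, chr11:120824548-120824697, minus strand: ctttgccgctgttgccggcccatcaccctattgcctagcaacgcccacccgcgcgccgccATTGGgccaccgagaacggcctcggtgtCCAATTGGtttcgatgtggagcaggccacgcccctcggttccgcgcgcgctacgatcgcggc
Thrsp, chr7:97417551-97417700, minus strand: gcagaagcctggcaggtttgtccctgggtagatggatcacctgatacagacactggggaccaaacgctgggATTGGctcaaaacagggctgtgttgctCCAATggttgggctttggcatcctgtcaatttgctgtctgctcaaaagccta
Pnpla3, chr15:84167666-84167815, plus strand: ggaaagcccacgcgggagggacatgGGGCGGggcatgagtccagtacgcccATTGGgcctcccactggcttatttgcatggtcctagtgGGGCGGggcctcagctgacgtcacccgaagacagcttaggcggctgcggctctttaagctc
In these stretches Fasn held 3 CCAAT matches, of which 2 overlap on opposite strands, Thrsp held 2, and Pnpla3 held 1 beside 2 GC boxes. Fasn and Pnpla3 were among the pairs closest between livers (r = 0.94). Acly was at least as close to Elovl6 (0.95) and Acaca (0.94), whose windows held none of the 4 patterns. Thrsp, with 2 CCAAT matches, was among the genes least tied to the others (mean r of 0.76). A match in letters is not evidence of a bound site, and a link between matches and r was not tested.

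The wider pathway was read through 3 gene lists. Between the sexes, 37.7% of all genes were called in misaligned mice (17.8% higher and 19.9% lower in females). In controls 32.9% of all genes were called (16% higher and 17% lower). Of 13 regulators of lipogenesis, 8 were called between the sexes in misaligned mice, 6 higher and 2 lower in females, with a median log2 difference of 0.25 against 0.01 for all genes, among them Mlxipl (0.83 ± 0.11) and Srebf1 (0.50 ± 0.16, edgeR adjusted p = 0.00828). In controls 9 of the 13 were called, 8 higher and 1 lower in females, with a median log2 difference of 0.26 against 0.01 for all genes. Mlxipl averaged 488 CPM in control females and 313 CPM in control males (0.67 ± 0.11, adjusted p = 5.84e-06), Srebf1 differed by 0.57 ± 0.16 (adjusted p = 0.00367), and Insig2, which holds back the sterol-regulated factors, was lower in control females at -0.69 ± 0.11. Transcripts of both main lipogenic factors were thus higher in females, in both treatments, while their proteins were not measured.

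Genes that feed acetyl-CoA, glycolytic carbon or NADPH were called in 5 of 12 cases in misaligned mice, 1 higher and 4 lower in females (median -0.17), and in 5 of 12 in controls, 2 higher and 3 lower (median 0.01). G6pdx, which makes NADPH, was higher in females in both treatments, by 0.69 ± 0.22 in misaligned mice and 0.87 ± 0.22 in controls. Genes that use new fatty acids were called in 7 of 12 cases in misaligned mice, 1 higher and 6 lower in females (median -0.23), and in 4 of 12 in controls, 3 higher and 1 lower (median -0.02). Of all genes 37.7% were called in misaligned mice and 32.9% in controls. Both supply counts, and the use count in controls, are thus close to the background share. Cidec, a lipid droplet protein gene, was far lower in females, with 10.4 CPM in misaligned females against 164 CPM in misaligned males and 12.7 CPM in control females against 148 CPM in control males. Dgat2, which makes triglyceride, was higher in females in both treatments (0.55 ± 0.09 in misaligned mice and 0.56 ± 0.09 in controls).

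Mean effects of misalignment were called for 0 of the genes of these 3 lists in either sex. At 20 h in males, where Thrsp passed, 4 of the 12 supply genes and 4 of the 12 use genes were called, all higher in misaligned males, with the stellate, endothelial, cholangiocyte and hepatocyte marker calls given above for that contrast, and 3 of the 13 regulators were, 2 higher and 1 lower, beside 8.31% of all genes called higher and 6.07% lower. Srebf1 averaged 703 CPM in misaligned and 332 CPM in control males (1.08 ± 0.39, edgeR adjusted p = 0.0498). The citrate carrier gene Slc25a1 was higher by 0.97 ± 0.17, the fructokinase gene Khk by 0.89 ± 0.23 and the desaturase gene Fads2 by 0.99 ± 0.28.

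Over the 24 group means of log2 CPM, the genes outside the 9 with a pattern most like their standardised mean were Pnpla5 (r = 0.93), Pklr (0.90), Acss2 (0.88), Dhcr7 (0.87), Rnf103 (0.84), Pmvk (0.84), Echdc1 (0.84) and Lss (0.83), out of 9291 genes compared. Pklr encodes the liver pyruvate kinase and Acss2 makes acetyl-CoA from acetate, while Dhcr7, Pmvk and Lss act in cholesterol synthesis. The genes with the most opposite pattern were Pptc7 (-0.70), Zc3h13 (-0.69) and Ankrd13c (-0.68). These r values describe 24 points that share libraries and carry no test.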

How the data were processed

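Poly(A) RNA of whole liver was sequenced as stranded read pairs of 150 bp, per the labels' protocols. Reads were aligned with STAR 2.6.0c to GRCm38, per the submitters' processing notes. The authors deposited whole-number read counts per gene and per intron, and all columns could be matched to samples through their labels. The sense counts of uniquely assigned reads were used; library totals were nearly equal (11551524 to 12529963), so they say little of the original depth. The labels call the livers biological replicates.

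Genes were kept by filterByExpr (15066 of 27846). The model was that of edgeR 4.0.16 under R 4.3.3 (TMM, robust quasi-likelihood, 1 mean per group with 48 residual degrees of freedom, or a 24 h cosine per sex and treatment with 60). P-values were 2-sided, adjusted by the Benjamini-Hochberg method over all tested genes within each comparison, not across comparisons, and called below 0.05. A prior count of 2 went into log2 CPM. Intron counts were summed per gene (11293 tested). Fitted differences of clock times come from this model, whose spread is shared over all 72 libraries. The model was tested on simulated data: for a mean effect in males it recovered 92% of genes changed by 1 log2 and 65% of those changed by 0.5, with 3.68% of calls false, and for a rhythm change in males 80% of genes with a change of 1 log2 and 47% of those with 0.5, with 8.63% false. Genes in the simulation had their own estimated spread, and the changed ones were drawn from all tested genes. The 9 members vary more than most, with within-group SDs of 0.52 to 1.31 against a median of 0.22. The recovered shares therefore do not describe the 9 members, for which recovery was not measured.

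All 9 members are named. Pathway genes are given as counts per list with up to 4 examples, and like genes as the 8 highest and 3 lowest r. Members, lists and tests were chosen with earlier results of these data known. Samples of 1 replicate number did not deviate together (mean r of -0.0039 against 0.0020 for other numbers), so the numbers were not used as pairs. No 2 libraries of a group agreed within sampling noise (chi-square per degree of freedom of at least 9.62). Alternatives were the size factors of DESeq2 1.42.0, no filter, a mean of at least 5 CPM, DESeq2, limma-voom (limma 3.58.1), counts with ambiguous reads, a replicate block, 1 sex alone, any difference between clock times, and leaving out each replicate number or library. Molecular time, and other settings of the correlations, were added after seeing the data. Figures used Python 3.11.15 and matplotlib 3.10.9.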

Additional observations from a re-analysis of the deposited data

How the results depend on the processing

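No single-gene log2 difference that was followed over the settings reversed its sign. Those followed were called under some setting or lay near the threshold. Signs of the other fitted differences were not compared between settings. Counts of called members stayed within 1.5 times under 137 of 144 settings other than those that leave out samples. The exceptions were 1 member with a filter at 5 CPM and 2 with DESeq2, against 0, for the effect by clock time in males, 2 calls with the libraries of 1 sex alone, against 1, for single clock times, and 0 for the rhythm in misaligned females when any difference between clock times was tested, against 1. On molecular time that rhythm was called for 2 members, and the rhythm in control males and in misaligned males for 1 each, against 0 on clock time. The cause was not tested. Leaving out each replicate number in turn gave 1 to 2 members for the sex difference in misaligned mice, 1 to 5 for that in controls, 0 to 1 calls at single clock times, 0 for the rhythm in misaligned females and 0 to 2 for the rhythm in control females (Me1 and Scd1 without replicate 3). Every other count stayed at 0.

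Leaving out each of the 72 libraries gave 2 to 3 members for the sex difference in misaligned mice, 3 to 5 in controls and 0 to 1 for the effect by clock time in males. In controls Fasn passed without control male replicate 2 at 4 h, replicate 2 at 16 h or replicate 1 at 20 h (adjusted p down to 0.0292). Acly passed without any one of 20 libraries (0.82 to 1.06, adjusted p down to 0.00957): those 3; in control females replicate 3 at 0 h, 1 at 4 h, 2 and 3 at 8 h, 1 and 2 at 12 h and 1 and 2 at 16 h; in misaligned females replicate 2 at 4 h, 2 and 3 at 8 h, 2 and 3 at 16 h and 1 at 20 h; and in misaligned males replicates 1 and 2 at 4 h and 1 at 20 h. In misaligned mice Thrsp did not pass without any one of 14 livers: in misaligned females replicates 2 and 3 at 0 h, 1 at 4 h, 1 and 2 at 8 h, 1 at 12 h, 3 at 16 h and 1 at 20 h, and in misaligned males replicates 1 and 2 at 0 h, 1 at 4 h, 1 at 12 h, 3 at 16 h and 3 at 20 h (-0.69 to -0.57). For the effect by clock time in males Thrsp passed without any one of 7 livers (adjusted p down to 0.0268): in misaligned females replicate 1 at 0 h and 1 at 20 h, in misaligned males replicate 3 at 0 h, 2 at 4 h, 3 at 16 h and 1 at 20 h, and in control males replicate 2 at 4 h.

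With the replicate block, Acly also passed in controls (0.86, edgeR adjusted p = 0.0470), which made 4 members. The block changed no other member's call, and its check of shared numbers is a mean r of -0.0039, so it is not a paired analysis. The median r of the 36 pairs was 0.84 to 0.87 with other size factors, ambiguous reads, the block or a replicate number left out, 0.83 without 2 livers and 0.82 as Spearman rho. Intron reads gave 6 member calls, as they did with ambiguous reads included, and 5 with no filter, where Scd1 in misaligned mice did not pass.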
